A study of Rattus norvegicus with 6 samples.

Results

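The 9 genes described here encode the potassium channels that repolarise the heart muscle cell, together with Kcnip2, the accessory subunit of one of them. They were chosen by name (Kcnip2, Kcnd2, Kcnd3, Kcna4, Kcna5, Kcnh2, Kcnq1, Kcnj2 and Kcnj11) and comprise 9 of the 15168 named genes on the array and 12 of its 30367 probes. Earlier results of these data were known when the genes were chosen, so member counts set beside all probes are descriptive only. Their RNA was measured in primary ventricular myocytes of male Sprague-Dawley rats aged 1 to 2 days, in 3 samples transfected with an siRNA against uc.323 (si-uc.323) and 3 transfected with a scrambled siRNA (si-scramble), with 1 array per sample. uc.323 is a transcribed ultraconserved region, a piece of genome identical between several mammals that is copied into non-coding RNA. All 6 cultures were preplated to remove fibroblasts, grown with 5-bromodeoxyuridine for 36 h, exposed to 50 nmol/L of siRNA with Lipofectamine RNAiMAX for 3 h, left in serum-free medium for another 21 h and harvested 24 h after transfection. A single siRNA sequence was used against uc.323. The level of uc.323 itself was not analysed here, so the extent of its knockdown is not shown.

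The siRNA against uc.323 is printed because it defines the treated group. The labels give 1 strand, with a dTdT overhang at its 3′ end, and do not say whether it is the guide.
siRNA against uc.323, strand as labelled: gguaaguaauuucagcaau

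Repolarisation returns the membrane of a heart cell to its resting voltage after each beat and is carried by potassium leaving the cell through several channels that open at different times. The fast transient outward current runs through Kv4 channels, whose pores are made of the Kcnd2 and Kcnd3 proteins and whose traffic to the membrane and gating depend on KChIP2, the calcium-binding protein made from Kcnip2. Kcna4 forms the slower transient outward channel and Kcna5 the ultrarapid delayed rectifier, while Kcnh2 and Kcnq1 form the rapid and slow delayed rectifiers. Kcnj2 holds the resting voltage, and Kcnj11 is the pore of the channel that opens when ATP falls.

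Values are log2 intensities relative to each array's own 75th percentile, so a difference of -1 is a halving of the intensity. Levels of different probes are not comparable, and only changes of one probe between samples are described. The labels call the cultures independent experiments but do not tie them to animals. Each p-value thus rests on the spread among these 6 samples, which may be technical. The number of arrays limits the precision. Slides were inferred from scan identifiers in the file headers, with arrays that share an identifier taken as one slide. By this inference the 3 si-scramble arrays lay with si-uc.323 replicate 1 on slide 1. The other 2 si-uc.323 arrays, replicates 2 and 3, lay on slide 2. The slide 2 arrays were brighter, with 78.2% and 86.5% of probes well above background against 71.8% to 73.9% on slide 1. All 7 ventricular myocyte markers with a probe were well above background on every array. The RNA is that of whole cultures, so fewer cells of a type and less RNA per cell cannot be told apart.

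Of the members tested, Kcnip2 alone passed the threshold, an adjusted p of 0.05 over all 21994 tested probes, and its RNA was lower after si-uc.323. Its intensity was 42.9% of the si-scramble level (95% interval 31.4% to 58.6%), while the probes for the Kv4 pore genes Kcnd2 and Kcnd3 had log2 fold changes between -0.13 and 0.04. Kcna4, Kcnh2 and Kcnq1 each had a probe whose si-uc.323 values all lay below the si-scramble values, but none of these passed the threshold. Of the 11 member probes that were tested, 1 was called lower and 0 higher by limma. Over all tested probes 2.41% were called lower, 3.48% higher and 5.89% in either direction. An unadjusted p under 0.05 in limma was found for 4 of the 11 member probes and for 6222 of all 21994. The unadjusted counts of other lists below are to be read beside this share. The member probes had a median log2 fold change of -0.16 and a range of -1.22 to 0.56, beside a median of 0.06 over all tested probes, and 8 of the 11 were below 0, against 43.6% of all tested probes. Separated groups were found for 4 of the 11 member probes (36.4%), all lower, against 35.4% of all tested probes in either direction, 15.8% lower and 19.7% higher. The calls over all probes were 59.2% higher, a share that was 40.5% when arrays were shifted by their median, 47.5% after normexp background correction, 47.2% after quantile normalization, 48.5% after cyclic loess and 47.3% on the authors' series values.

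**Figure D1:**
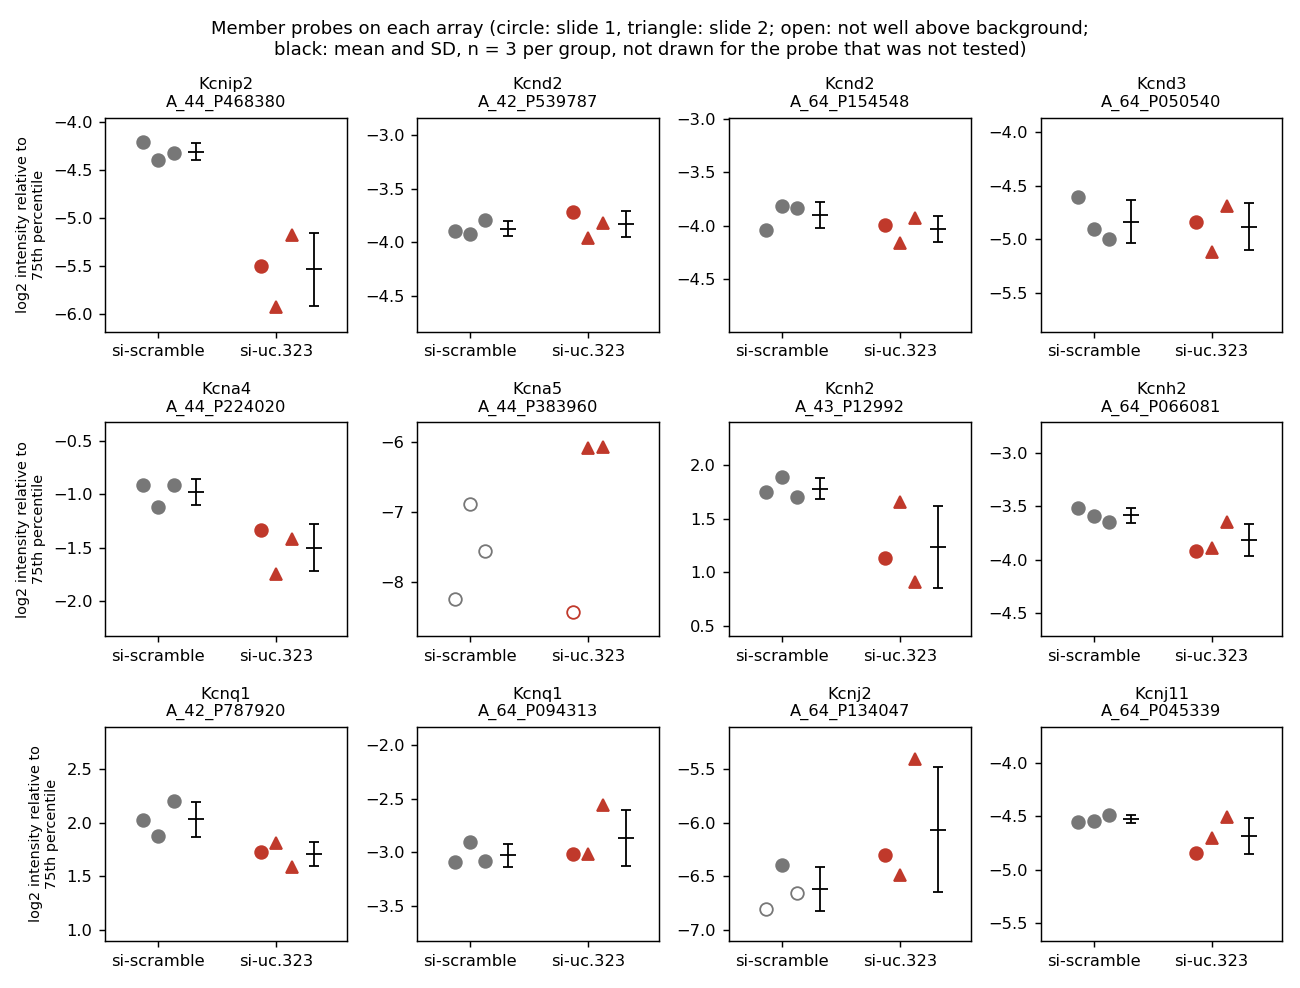
Log2 intensity relative to the array's 75th percentile (vertical axis) of all 12 member probes on each of the 6 arrays, with grey points for si-scramble and red for si-uc.323, circles for slide 1 and triangles for slide 2, open symbols where the probe was not well above background, and bars for the mean and SD of 3 arrays (none for Kcna5, which was not tested). Panels span different levels; the Kcnip2 points lie close together in si-scramble (-4.39 to -4.21) and lower and wider apart in si-uc.323 (-5.93 to -5.18), whereas the Kcnd2 and Kcnd3 points intermingle.

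Kcnip2 was measured by 1 probe, A_44_P468380, designed against NM_020094. The log2 values were -5.50, -5.93 and -5.18 in si-uc.323 replicates 1, 2 and 3, and -4.21, -4.39 and -4.33 in si-scramble replicates 1, 2 and 3. The groups did not overlap, the highest si-uc.323 array lying below the lowest si-scramble array. The mean was -5.53 ± 0.37 (SD, n = 3) after si-uc.323 and -4.31 ± 0.09 (SD, n = 3) after si-scramble. The log2 fold change was -1.22 ± 0.19 (SE), a 2.33-fold lower intensity, with an adjusted p of 0.0263 in limma. Set against the si-scramble mean, the level was 43.9% in si-uc.323 replicate 1, 32.7% in replicate 2 and 54.8% in replicate 3, so the array that shared slide 1 with the controls lay between the 2 arrays of slide 2. With the 4 arrays of slide 1 alone, where 1 si-uc.323 array is assumed to vary like the controls, the log2 fold change was -1.19 with an adjusted p of 0.0639 in limma. With slide as a block it was -1.19 with an adjusted p of 0.182.

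Kcnip2 was a dim probe. Its processed intensities were 26.7, 28.3 and 49.0 units after si-uc.323 and 64.7, 65.7 and 58.8 units after si-scramble. It was well above background on all 6 arrays, by 1.096, 1.297 and 1.812 log2 units over the dimmest probe so classed on si-uc.323 arrays 1, 2 and 3 and by 2.115, 2.121 and 2.130 on the si-scramble arrays. Normexp background correction, which adds an offset of 50 units to each intensity, gave a log2 fold change of -0.71 with an adjusted p of 0.0261 in limma. The call was lost when any one si-scramble array was left out, with log2 fold changes of -1.17, -1.26 and -1.23 and adjusted p of 0.112, 0.0884 and 0.124 in limma without replicates 1, 2 and 3. In those fits limma called 0, 19 and 0 probes over the whole array (4309 at an unadjusted p under 0.05 in the first and 3804 in the third). The Kcnip2 call was also lost with no filter on dim probes (adjusted p = 0.101 in limma).

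**Figure D2:**
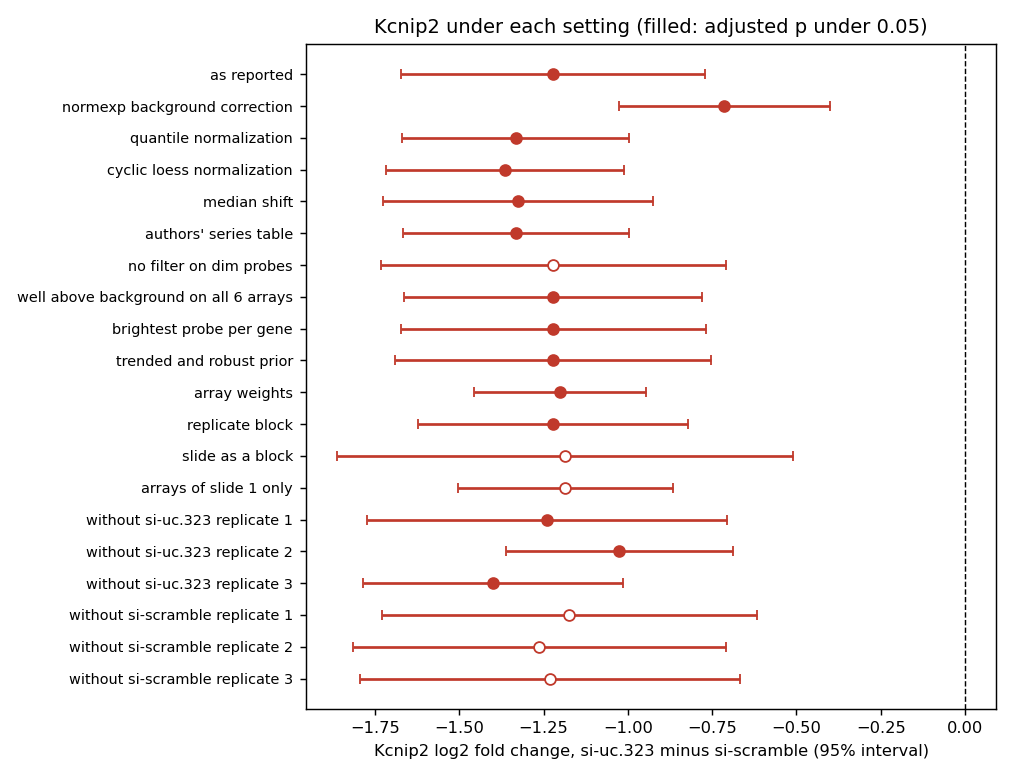
Kcnip2 log2 fold change, si-uc.323 minus si-scramble (horizontal axis), with its 95% interval as reported and under each of 19 alternative settings (vertical axis); filled points have an adjusted p under 0.05. Every point lies left of the dashed line at 0, between -1.40 and -0.71, and 13 of the 19 alternatives pass the threshold. As the groups did not overlap, only background correction, normalization or the series values could have moved a point across the line.

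Kcnd2, the Kv4.2 pore subunit and a binding partner of KChIP2, had 2 probes. Probe A_42_P539787, printed in 10 spots per array, read -3.71, -3.96 and -3.82 in si-uc.323 replicates 1, 2 and 3 and -3.89, -3.93 and -3.80 in si-scramble. The groups overlapped fully, and the log2 fold change was 0.04 ± 0.12 (SE; 95% interval -0.23 to 0.31), with an adjusted p of 0.838 in limma. Its sign turned under 6 of the alternative settings, among them quantile normalization. Probe A_64_P154548 read -4.00, -4.17 and -3.93 after si-uc.323 and -4.04, -3.82 and -3.84 after si-scramble. These groups overlapped as well, with a log2 fold change of -0.13 ± 0.12 (SE; 95% interval -0.42 to 0.16) and an adjusted p of 0.511 in limma.

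Kcnd3, the Kv4.3 pore subunit, had 1 probe, A_64_P050540, which read -4.84, -5.12 and -4.69 after si-uc.323 and -4.61, -4.90 and -4.99 after si-scramble. Like that of Kcnip2 it was a dim probe, at 42.1, 49.5 and 69.0 units after si-uc.323 and 49.3, 46.1 and 37.1 units after si-scramble. The groups overlapped, with the highest value in si-scramble and the lowest in si-uc.323. The log2 fold change was -0.05 ± 0.16 (SE; 95% interval -0.42 to 0.33), with an adjusted p of 0.875 in limma, and its sign turned under 3 alternatives. The intervals of the 3 Kv4 probes all exclude a change as large as that of Kcnip2, and smaller changes in either direction remain within them.

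The accessory subunit and its pore genes were also compared within each array, which removes any factor that scales the whole array. The log2 value of Kcnip2 minus that of the brightest Kcnd2 probe was -1.79, -1.97 and -1.36 on si-uc.323 arrays 1, 2 and 3 and -0.32, -0.47 and -0.53 on the si-scramble arrays. The groups were separate, and the Kcnip2 change was 1.26 log2 units lower than the Kcnd2 change (difference -1.26), with a 2-sided exact permutation p of 0.1, the smallest that 3 arrays against 3 can give. Kcnip2 minus Kcnd3, both dim probes, was -0.66, -0.81 and -0.49 after si-uc.323 and 0.39, 0.51 and 0.66 after si-scramble. These groups were separate too, with a difference of -1.18 and an exact permutation p of 0.1, again the smallest possible. With normexp correction the differences were -0.62 for Kcnd2 and -0.51 for Kcnd3.

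**Figure D3:**
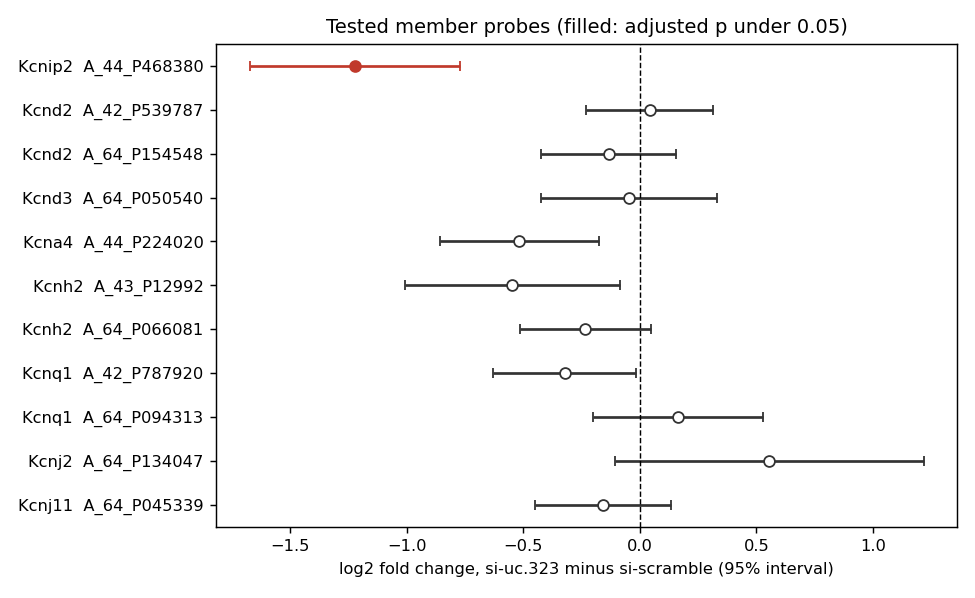
Log2 fold change, si-uc.323 minus si-scramble (horizontal axis), with 95% intervals from limma for the 11 tested member probes (vertical axis); the filled red point has an adjusted p under 0.05. The Kcnip2 interval, -1.67 to -0.77, does not reach those of the Kcnd2 and Kcnd3 probes, the lowest of which ends at -0.42.

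Kcna4, the pore of the slow transient outward channel (Kv1.4), read -1.33, -1.74 and -1.42 in si-uc.323 replicates 1, 2 and 3 and -0.91, -1.12 and -0.91 in si-scramble on its 1 probe, A_44_P224020. All si-uc.323 arrays lay below all si-scramble arrays, at a mean level 69.9% of the control. The log2 fold change was -0.52 ± 0.15 (SE; 95% interval -0.86 to -0.18), with an adjusted p of 0.0763 in limma, and the threshold was not passed. The array on slide 1 differed from the si-scramble mean by -0.35, and the arrays on slide 2 by -0.76 and -0.44. Kcna4 passed the threshold under 4 of the 19 alternatives (normexp correction, cyclic loess normalization, array weights and a trended, robust prior) and not under the other 15. With slide as a block its log2 fold change was -0.35 with an adjusted p of 0.424 in limma, and the adjusted p was 0.159 to 0.261 without any one si-scramble array.

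Kcna5, the pore of the ultrarapid delayed rectifier (Kv1.5), was not tested, because its probe, A_44_P383960, was not well above background on all arrays of either group. It was above background on si-uc.323 replicates 2 and 3, at -6.08 and -6.07, which are the 2 arrays of slide 2. On si-uc.323 replicate 1 (-8.43) and on si-scramble replicates 1, 2 and 3 (-8.25, -6.89 and -7.57) it was not well above background, so these readings have no order. On slide 1 the si-uc.323 array was thus not well above background, like the 3 si-scramble arrays. Slide 2 held no si-scramble array, so slide and treatment cannot be told apart for the 2 readings above background.

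Kcnh2, the pore of the rapid delayed rectifier (the ERG channel), had a bright and a dim probe. The bright probe, A_43_P12992, read 1.13, 1.66 and 0.91 in si-uc.323 replicates 1, 2 and 3 and 1.75, 1.89 and 1.70 in si-scramble. The groups were separate, though replicate 2 lay just under the lowest control. The log2 fold change was -0.55 ± 0.20 (SE; 95% interval -1.01 to -0.09), with an adjusted p of 0.126 in limma. It was -0.76 (adjusted p = 0.0279 in limma) without si-uc.323 replicate 2, -0.50 (0.201) without replicate 1 and -0.39 (0.241) without replicate 3, and the adjusted p was 0.262 to 0.286 without any one si-scramble array. The dim probe, A_64_P066081, read -3.92, -3.89 and -3.65 after si-uc.323 and -3.51, -3.59 and -3.65 after si-scramble. These groups met at their edges, with a log2 fold change of -0.23 ± 0.12 (SE) and an adjusted p of 0.249 in limma.

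Kcnq1, the pore of the slow delayed rectifier, had 2 probes whose changes had opposite signs. Probe A_42_P787920 read 1.73, 1.81 and 1.59 in si-uc.323 replicates 1, 2 and 3 and 2.02, 1.88 and 2.20 in si-scramble. Its groups were separate, with si-uc.323 lower by a log2 fold change of -0.32 ± 0.13 (SE; 95% interval -0.63 to -0.02) and an adjusted p of 0.158 in limma. Probe A_64_P094313 read -3.02, -3.02 and -2.56 after si-uc.323 and -3.10, -2.91 and -3.09 after si-scramble. Its groups overlapped, with a log2 fold change of 0.16 ± 0.16 (SE; 95% interval -0.20 to 0.53) and an adjusted p of 0.525 in limma.

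Kcnj2, the main inward rectifier of the ventricle (Kir2.1), was near background on its 1 probe, A_64_P134047, which was well above it on all 3 si-uc.323 arrays and on si-scramble replicate 2 only. It read -6.30, -6.49 and -5.40 after si-uc.323 and -6.80, -6.40 and -6.65 after si-scramble. The groups overlapped, and si-uc.323 replicate 3, on slide 2, stood above the rest. The probe passed the filter on dim probes only through si-uc.323, the group where it read higher, so its test carries no support for a difference. The fitted log2 fold change was 0.56 ± 0.28 (SE; adjusted p = 0.243 in limma), it was 0.22 without si-uc.323 replicate 3, and it was -0.16 with normexp correction. Kcnj11, the pore of the ATP-sensitive channel (Kir6.2), read -4.84, -4.71 and -4.50 after si-uc.323 and -4.55, -4.54 and -4.49 after si-scramble on probe A_64_P045339. Its groups overlapped at the upper end, with a log2 fold change of -0.16 ± 0.12 (SE; 95% interval -0.45 to 0.13) and an adjusted p of 0.437 in limma.

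Other genes of potassium currents were read from lists of related channels and partners. Of 19 genes for partners of voltage-gated channels, 16 had a tested probe, and 0 of their 18 probes were called by limma (6 had an unadjusted p under 0.05). Their median log2 fold change was 0.06, with 8 of the 18 below 0. The lowest adjusted p belonged to Kcne3, a single-span subunit that modifies Kcnq1 and other channels, at a log2 fold change of 0.60 ± 0.15 (SE; adjusted p = 0.0601 in limma), and to Kcng2, a silent subunit that joins other voltage-gated pores, at -0.47 ± 0.12 (SE; adjusted p = 0.0606 in limma). With normexp correction Kcne3 was at 0.04 (adjusted p = 0.862 in limma). The paralogues of Kcnip2, named here outside the rule for their shared family, had log2 fold changes of 0.38 (Kcnip1), 0.00 (Kcnip3) and 0.39 (Kcnip4), and none was called. Dpp6 and Dpp10, the other accessory subunits of Kv4 channels, had no tested probe.

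Among 22 other voltage-gated channel genes, 15 had a tested probe and 1 of 17 probes was called, that of Kcnh1, the ether-à-go-go channel. Kcnh1 read -2.68, -2.67 and -3.02 in si-uc.323 replicates 1, 2 and 3 and -1.96, -2.10 and -1.97 in si-scramble. The groups were separate and Kcnh1 was lower after si-uc.323, with a log2 fold change of -0.78 ± 0.13 (SE; adjusted p = 0.0296 in limma). Kcnh3, of the same family, had one probe at 0.87 ± 0.20 (SE; adjusted p = 0.0506 in limma) and a brighter one at -0.20. In si-scramble only 2 of 3 arrays had the first of these well above background, so it passed the filter only through si-uc.323, where it read higher, and it was at 0.04 with normexp correction. The list's median was 0.07, with 6 of 17 probes below 0.

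Of 16 two-pore and calcium-activated channel genes, 14 had a tested probe and 1 of 18 probes was called, that of Kcnk3. This gene encodes TASK-1, an acid-sensitive background potassium channel. Kcnk3 read -0.63, -0.79 and -0.80 in si-uc.323 replicates 1, 2 and 3 and 0.11, 0.15 and 0.27 in si-scramble. The groups were separate, the replicates lay close together, and Kcnk3 was lower by a log2 fold change of -0.91 ± 0.11 (SE; adjusted p = 0.0195 in limma). Kcnk2, the stretch-sensitive channel TREK-1, had 3 tested probes at 0.74 (adjusted p = 0.0692 in limma), 0.57 and 0.00. In si-scramble only 2 of 3 arrays had each of the first 2 well above background, so these probes passed the filter only through si-uc.323, where they read higher, and the first was at -0.01 with normexp correction. The list's median was -0.03, with 10 of 18 probes below 0.

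Of 11 other inward rectifier and ATP-sensitive channel genes, 7 had a tested probe and 0 of 9 probes were called by limma (4 had an unadjusted p under 0.05), with a median of -0.09 and 6 of 9 below 0. Abcc8, a sulphonylurea receptor that can pair with the Kcnj11 pore, had a log2 fold change of -0.47 ± 0.12 (SE; adjusted p = 0.0599 in limma). Abcc9, a receptor of the same family named here outside the rule, had probes at -0.35 and -0.03, neither of them called. Kcnj5, a subunit of the acetylcholine-gated channel, had one probe at 0.75 ± 0.21 (SE; adjusted p = 0.0741 in limma) and a brighter one at 0.15. With normexp correction the first was at 0.01 (adjusted p = 0.971 in limma).

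**Figure D4:**
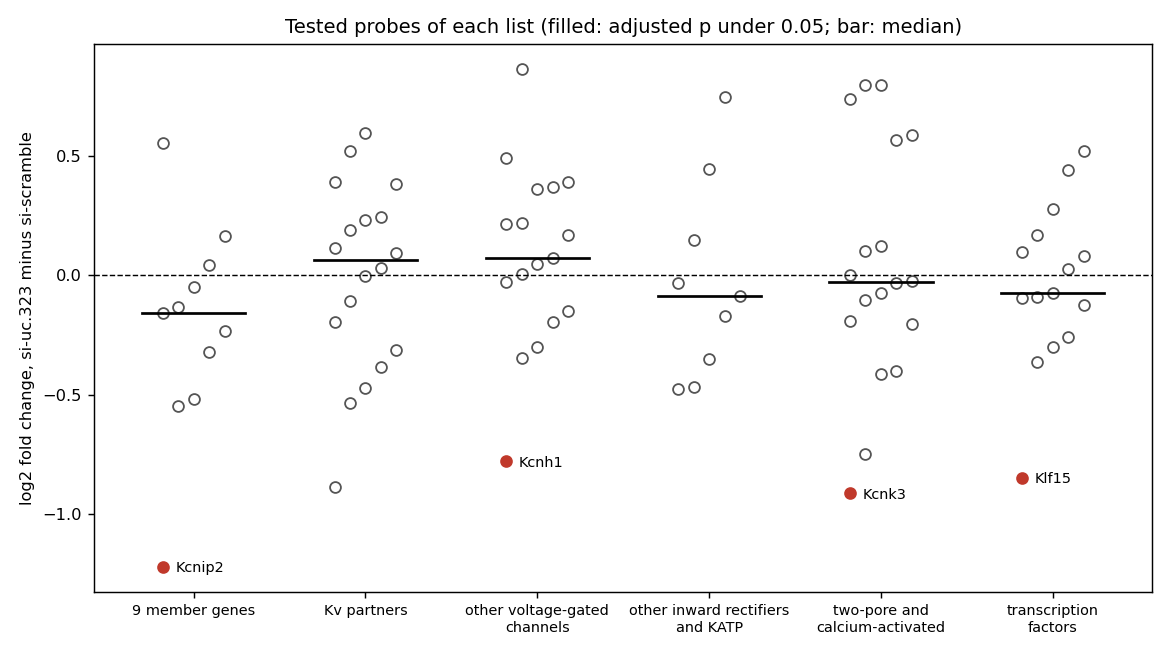
Log2 fold change, si-uc.323 minus si-scramble (vertical axis), of each tested probe of the 9 member genes, the related channel lists and the transcription factor list (horizontal axis); filled points have an adjusted p under 0.05 and bars are list medians. The called probes are Kcnip2 (-1.22), Kcnk3 (-0.91), Klf15 (-0.85) and Kcnh1 (-0.78), all lower, while every list has probes on both sides of 0.

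Transcription factors linked to repolarisation genes were read in the same way. Of 14 genes, 12 were on the array and tested, and 1 of 15 probes was called, that of Klf15, a Krüppel-like factor that binds CACCC-type DNA and is known as a regulator of Kcnip2 in the heart. Klf15 read 1.39, 1.11 and 1.11 in si-uc.323 replicates 1, 2 and 3 and 1.98, 2.04 and 2.13 in si-scramble. The groups were separate and Klf15 was lower, with a log2 fold change of -0.85 ± 0.13 (SE; adjusted p = 0.0227 in limma). The calls of Kcnh1, Kcnk3 and Klf15 were lost in the same 6 settings as that of Kcnip2. These were no filter, both slide settings and the omission of any one si-scramble array. Their directions were the same in all 19 alternatives. With separate groups, only background correction, normalization or the series values could have turned them. On slide 1 alone their log2 fold changes were -0.67, -0.80 and -0.66, with adjusted p of 0.0690, 0.0639 and 0.0703 in limma. The next lowest adjusted p on the list was that of Nkx2-5, a cardiac homeobox factor, at -0.36 ± 0.11 (SE; adjusted p = 0.0895 in limma). Irx5, a repressor of Kcnd2 in the mouse ventricle named here outside the rule for that role, had a log2 fold change of -0.09.

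The promoters of the accessory subunit and its 2 pore genes are printed because the 3 genes encode parts of one channel and a factor of the CACCC-binding family was among the calls. Each is the 250 bases before the gene's start, 5′ to 3′ on the gene's strand, from RefSeq (assembly GRCr8), with CACCC on either strand (GGGTG on the other) in capitals. The window of Kcnip2 lies at chr1:254613899-254614148 (minus strand), that of Kcnd2 at chr4:50742235-50742484 (plus strand) and that of Kcnd3 at chr2:195626066-195626315 (plus strand).
Kcnip2: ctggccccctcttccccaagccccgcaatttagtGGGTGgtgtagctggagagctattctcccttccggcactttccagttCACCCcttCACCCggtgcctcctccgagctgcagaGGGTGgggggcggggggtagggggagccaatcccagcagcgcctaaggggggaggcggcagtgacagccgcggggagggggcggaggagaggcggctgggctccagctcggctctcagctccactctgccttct
Kcnd2: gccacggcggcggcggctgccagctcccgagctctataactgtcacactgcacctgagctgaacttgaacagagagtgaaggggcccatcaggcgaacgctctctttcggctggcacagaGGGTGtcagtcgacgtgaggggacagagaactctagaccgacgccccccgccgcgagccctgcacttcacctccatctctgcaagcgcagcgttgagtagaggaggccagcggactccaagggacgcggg
Kcnd3: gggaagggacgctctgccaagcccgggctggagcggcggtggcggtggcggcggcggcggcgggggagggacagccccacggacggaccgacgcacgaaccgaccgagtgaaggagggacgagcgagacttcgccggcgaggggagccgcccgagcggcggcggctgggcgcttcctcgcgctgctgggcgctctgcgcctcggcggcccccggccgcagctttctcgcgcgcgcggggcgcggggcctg

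The Kcnip2 window held 4 CACCC matches, Kcnd2 held 1 and Kcnd3 held 0. Of 33465 RefSeq promoters of the same length, 49.2% held at least 1 CACCC match and 2.18% held 4 or more, a cut equal to the Kcnip2 count. These promoters were not matched for GC content, which was 68.0% in the Kcnip2 window. The motifs ACANNTGT (in 6.71% of promoters), CANNTG (65.5%, and contained in every ACANNTGT match) and GATAA (23.5%) were also searched on both strands. Kcnd2 held 1 CANNTG match, and the Kcnd3 window held none of the 4 motifs. Promoters were matched for 6 of the 9 members, and Kcna4, Kcna5 and Kcnj2 each held 1 CACCC match. A match is a description of the letters and was not tested as a binding site.

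The genes whose pattern over the 6 arrays was most like that of Kcnip2 were found among 11110 named genes above background on every array. Likeness was the root mean square difference of log2 values after each probe was centred on its own mean. The closest were Trim50, a ubiquitin ligase, at 0.124, Scn4b, an accessory subunit of cardiac sodium channels, at 0.142, Khdc3 at 0.181, and Tbc1d10c and Them5, both at 0.185. Their log2 fold changes were -1.29, -1.22, -1.42, -1.08 and -1.29, given without a test because the genes were chosen for this pattern. Scn4b read -2.14, -2.46 and -2.16 in si-uc.323 replicates 1, 2 and 3 and between -1.11 and -0.98 in si-scramble. Its lowest value was on the same array as that of Kcnip2, which choosing genes by likeness favours.

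**Figure D5:**
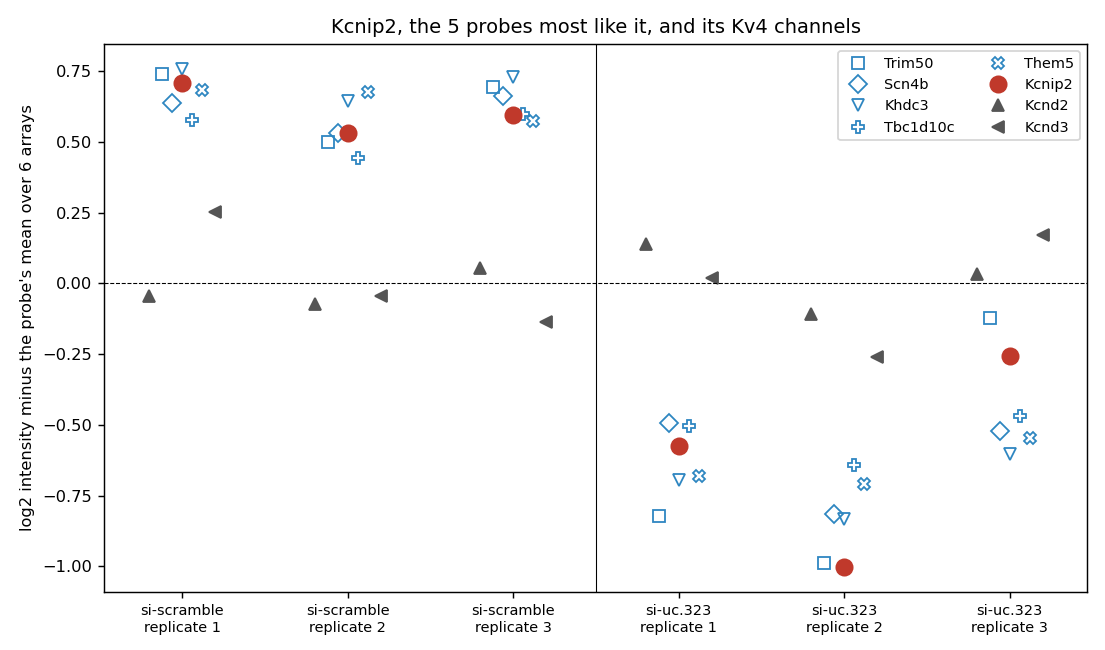
Log2 intensity minus each probe's mean over 6 arrays (vertical axis) on each array (horizontal axis) for Kcnip2 (red), the 5 genes most like it (open blue) and the brightest Kcnd2 and Kcnd3 probes (grey); sideways shifts only separate the symbols. Kcnip2 and the 5 genes lie above 0 on the si-scramble arrays and below 0 on the si-uc.323 arrays, lowest on replicate 2, whereas Kcnd2 and Kcnd3 lie on both sides of 0 in both groups. The 5 genes were chosen for their likeness to Kcnip2, so the shared pattern follows from the choice.

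Markers of the cells in the cultures were summed on the linear scale, relative to the 75th percentile, as values beside the Kcnip2 result. Ventricular myocyte markers summed to 147.3 to 173.2 after si-uc.323 and 154.2 to 162.6 after si-scramble, and Tnnt2 made up 47.4% to 53.9% of the sum. Of their 8 probes 0 were called by limma (3 had an unadjusted p under 0.05). These 3 had separate groups, lower for Ryr2 (-0.46, its other probe -0.03) and Tnni3 (-0.34) and higher for Myh7 (0.29). Fibroblast markers summed to 125.6 to 157.1 against 123.6 to 133.7, with 8 of 9 above background on every array and 1 probe higher, that of Postn (log2 fold change 0.69, adjusted p = 0.0311 in limma). Smooth muscle and pericyte markers summed to 39.2 to 46.1 against 36.4 to 40.8, and Acta2 made up 71.4% to 78.6% of the sum. All 7 of their probes had a log2 fold change above 0, with a median of 0.42, and 4 had an unadjusted p under 0.05. Of these, 1 of the 2 Myh11 probes was called higher (log2 fold change 1.25, adjusted p = 0.0223 in limma). It was 0.88 on slide 1 alone and not called there.

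Endothelial markers summed to 5.58 to 8.60 after si-uc.323 and 11.1 to 12.5 after si-scramble, and leukocyte markers to 2.95 to 3.19 against 3.76 to 3.87, so both sums were lower on every si-uc.323 array. A single bright gene made up most of each sum, Kdr with 84.1% to 92.0% of the endothelial and Cd68 with 76.3% to 83.9% of the leukocyte sum. Their log2 fold changes were -0.76 (adjusted p = 0.0666 in limma) and -0.41 (adjusted p = 0.0650). Pecam1 (-0.30) and Cdh5 (-0.10) were also below 0, while Tek (0.46), Emcn (0.21) and both Ptprc probes (0.21 and 0.06) were above 0. In all, 3 of 5 endothelial and 2 of 5 leukocyte probes were below 0, and the list medians were -0.10 and 0.06. Of their 10 probes 0 were called by limma (2 endothelial and 1 leukocyte probe had an unadjusted p under 0.05). Erythroid markers summed to 0.592 to 0.659 against 0.855 to 1.09, with Hbb lower (log2 fold change -0.61, adjusted p = 0.0466 in limma). The calls of Postn, Myh11 and Hbb were lost without any one si-scramble array, with no filter, on slide 1 alone and with slide as a block (adjusted p = 0.218, 0.160 and 0.280 in limma). Those of Postn and Hbb were also lost with a replicate block (adjusted p = 0.0546 and 0.0586 in limma) and without si-uc.323 replicate 1 or 3. Sums of atrial, conduction system and neural markers overlapped between the groups. No marker list had a measured gene at background on all 6 arrays. The part of these other cells in the Kcnip2 difference was not tested.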

How the data were processed

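Cy3-labelled RNA of each culture was read on a 1-colour array, per the labels' protocols, and quantified with Agilent Feature Extraction 11.0.1.1 (submitters' processing notes). The deposited spot intensity was background-subtracted within its array, per the file headers, with no scaling between arrays. The deposited series table holds log2 values of unstated scale and centring, with a median of 6.51 in all columns, and served as an alternative. Control and outlier spots were left out (322 to 594 outliers of 42877 spots per array), spots of a probe were averaged, and log2 values were shifted by each array's 75th percentile (1182 to 1381 units on slide 1, 1718 and 1775 on slide 2). A probe was tested if all 3 arrays of either group had it well above background. Another 44 probes lacked a value on some array, and no spot was saturated.

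Gene names came from a RefSeq table (GRCr8) by accession; 18005 probes matched and 12362 had no name. The probes' own coordinates (rn4) were not used. Each probe was fitted separately in limma 3.58.1 (lmFit, eBayes; R 4.3.3), with Benjamini-Hochberg adjustment and 95% intervals. The fit was also run on simulated data with independent noise and no slide effect, so that run cannot speak to the slides. The members and lists were chosen with earlier results of these data known. All member probes are named, and in other lists the called genes and the 2 with the lowest adjusted p, besides the 5 genes most like Kcnip2. Alternatives covered background correction, normalization, filters, probe choice, array weights, the prior, blocks for slide or replicate number, and single arrays left out; normexp used median spot and background intensities. Figures were drawn with matplotlib 3.10.9.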

Additional observations from a re-analysis of the deposited data

How the results depend on the processing

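The 1295 called probes became 2162 after cyclic loess, 2151 with a trended, robust prior, 6542 with array weights, 804 with a replicate block, 9 with slide as a block, and 0 in limma with no filter (5676 at an unadjusted p under 0.05) or on slide 1 alone (6577), and leaving out 1 array gave 0 to 3247. Called member probes, 1 as reported, were 2 with normexp, cyclic loess or the trended prior, 6 with array weights, 0 in limma with no filter, the slide block or slide 1 alone (3, 1 and 4 at an unadjusted p under 0.05), and 0 to 2 with an array left out, the 0 arising without any one si-scramble array (2 to 3 unadjusted). The signs that turned, none of them called, were those of Kcnd2 probe A_42_P539787 (normexp -0.096, quantile -0.0858, cyclic loess -0.0886, median shift -0.0624, series values -0.0863, and -0.0161 to 0.108 with an array left out), Kcnd3 (array weights 0.0321, and -0.144 to 0.0726 with an array left out), Kcnj2 (normexp -0.16) and Kcnk2 probe A_64_P053471 (normexp -0.0142). The causes were not tested. Kcnip2 was lower in all 19 alternatives. Its groups did not overlap, so only background correction, normalization or the series values, which change the values themselves, could have turned its sign. Replicate numbers gave no clear pairing of the samples (correlations of same-numbered deviations 0.20, 0.39 and -0.11, with 3 of 6 samples correlating best with their own number). With deviations taken from means of 3 arrays, this check cannot settle whether the samples were paired. The replicate block left Kcnip2 called (adjusted p = 0.0306 in limma). Depth of signal limits Kcna5, Kcnj2, Kcnip2 and Kcnd3, the probes nearest background, and slide 1 alone holds a single si-uc.323 array.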
